A study of Arabidopsis thaliana with 8 samples.

Results

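The auxin receptors TIR1 (AT3G62980), AFB1 (AT4G03190), AFB2 (AT3G26810) and AFB3 (AT1G12820), and the activating auxin response factors ARF5 (AT1G19850), ARF6 (AT1G30330), ARF7 (AT5G20730, also NPH4), ARF8 (AT5G37020) and ARF19 (AT1G19220), were followed in dark-grown Arabidopsis thaliana seedlings. They were picked by gene code and make up 9 of the 33518 genes counted in every library. All 9 passed the filter on low counts, which left 21221 genes for testing. AFB3, ARF5, ARF6 and ARF19 lie on chromosome 1, TIR1 and AFB2 on chromosome 3, AFB1 on chromosome 4, and ARF7 and ARF8 on chromosome 5.

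RNA was sequenced from etiolated seedlings of 4 genotypes, all in the ecotype Col-0, with 2 libraries per genotype. The line pifq;bzr1-1D combines the mutations of the other mutant lines, pifq carries mutations in the genes of 4 phytochrome-interacting factors (PIFs), namely PIF1, PIF3, PIF4 and PIF5, bzr1-1D carries a dominant allele that keeps the brassinosteroid-activated transcription factor BZR1 stable, and Col-0 is the wild type. All seedlings, the wild type included, spent 5 days in darkness on a medium with BRZ, a blocker of brassinosteroid synthesis. The series asks how BZR1 and PIF4 act together. Separate plantings are not mentioned in the labels for the paired libraries of a genotype, so each p-value below measures the spread between libraries only, which may be technical.

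Auxin acts as a glue between an F-box receptor of the TIR1/AFB family and an Aux/IAA repressor, and the receptor's SCF ubiquitin ligase then marks the repressor for destruction. ARFs bind auxin response elements in promoters. The activating ARFs switch on genes for cell elongation, phototropism and lateral root growth once the Aux/IAA proteins and their TOPLESS corepressors are gone. In the hypocotyl of dark-grown seedlings, ARF6 protein is known to bind growth genes together with BZR1 and PIF4.

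6 of the 9 transcripts hold close matches to a microRNA. The sites are shown because they divide the genes into families that can be set beside the expression values. MicroRNA miR393 has such sites in the receptors, and miR167 has them in ARF6 and ARF8. The mature sequences are credited to RefSeq (TAIR10.1), with the seed, bases 2 to 8, in capitals.
miR393a-5p: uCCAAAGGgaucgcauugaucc
miR167a-5p: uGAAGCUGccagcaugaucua
The best sites for miR393 in the receptor transcripts follow, 5′ to 3′, with bases of the exact complement of the microRNA in capitals. A G facing a U counts as a mismatch here, as for the lower-case g of TIR1 and AFB1. In TAIR10.1 all lie in coding sequence, in exon 3 for TIR1 (chr3:23273727-23273748, minus strand), AFB1 (chr4:1405341-1405362, minus strand) and AFB2 (chr3:9870237-9870258, plus strand), and in exon 4 for AFB3 (chr1:4369085-4369106, minus strand).
TIR1: GagaCAAUGCGAUCCCUUUGGA
AFB1: GagaCcAUGCGAUCCCUUUGGA
AFB2: GaAaCAAUGCGAUCCCUUUGGA
AFB3: GaAaCAAUGCGAUCCCUUUGGA
AFB2 and AFB3 share the same site with 2 mismatches, TIR1 has 3 and AFB1 has 4. Sites with as few mismatches were present in 0.00636% of 31458 transcripts for AFB2 and AFB3, 0.00954% for TIR1 and 0.0223% for AFB1. For miR167 the best sites lie in coding sequence of exon 13 of ARF6 (chr1:10686478-10686498, minus strand) and of ARF8 (chr5:14633841-14633861, plus strand).
ARF6: gAGAUCAgGCUGGCAGCUUgu
ARF8: UAGAUCAgGCUGGCAGCUUgu
ARF6 has 4 mismatches and ARF8 has 3, against 7 or 8 at the best place in each of the other 7 genes. A site is a sequence match only, and mature microRNAs were not measured in these libraries.

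Gene counts per library ran between 16109238 and 34388943, and the 9 genes had from 441 counts (ARF5 in pifq;bzr1-1D replicate 2) to 7744 counts (TIR1 in Col-0 replicate 1). The libraries of pifq;bzr1-1D differed more from each other than those of any other genotype, with a chi-square per degree of freedom over genes of 5.50, against 1.72 to 2.47 in the others, and every comparison with that line rests on them. PIF1 transcripts, a check of the labels, had 22.1 and 19.3 CPM (gene counts scaled to the same library size, with TMM factors) in pifq;bzr1-1D, 21.5 and 22.4 CPM in pifq, 43.6 and 43.4 CPM in bzr1-1D, and 45.9 and 45.6 CPM in Col-0. PIF3 and PIF5 were likewise below Col-0 in every library of pifq;bzr1-1D and pifq. PIF4 transcripts were higher there, with 49.9 and 47.5 CPM in pifq;bzr1-1D, 25.02 and 26.05 CPM in pifq, 14.5 and 12.8 CPM in bzr1-1D, and 13.9 and 14.6 CPM in Col-0, so the PIF4 transcript level does not check that allele, nor does that of BZR1 check an allele that acts on the protein. The greening enzyme transcripts PORA and PORB, which mark etiolated seedlings, summed to 3286 to 5682 CPM over the libraries, and differed in pattern. PORA averaged 1057 CPM in pifq;bzr1-1D, 1756 CPM in pifq, 2908 CPM in bzr1-1D and 3194 CPM in Col-0. PORB averaged 2262 CPM in pifq;bzr1-1D, 2657 CPM in pifq, 2418 CPM in bzr1-1D and 2483 CPM in Col-0. The summed level of 5 root hair markers was 0.324 and 0.654 CPM in pifq;bzr1-1D and 4.67 and 4.99 CPM in pifq. It was 0.458 and 0.484 CPM in bzr1-1D and 8.22 and 9.02 CPM in Col-0. COBL9 had 0 counts in both pifq;bzr1-1D libraries and EXPA18 had 0 counts in both bzr1-1D libraries. The seed markers, 3 genes, summed to 69.5 to 73.9 CPM in pifq;bzr1-1D and 39.3 to 40.5 CPM in pifq. In bzr1-1D the sum was 1.81 to 1.91 CPM, and in Col-0 it was 170 to 175 CPM. These genes differed in pattern. CRU3 averaged 42.3 CPM in pifq;bzr1-1D, 15.7 CPM in pifq, 0.547 CPM in bzr1-1D and 84.6 CPM in Col-0. CRA1 averaged 16.25, 23.8, 0.706 and 80.2 CPM in the same order, and SESA5 13.15, 0.358, 0.608 and 7.48 CPM. Chloroplast-encoded genes took 0.935% to 1.5% of counts in the lines without the PIFs and 0.46% to 0.646% in the lines with them. The part of these differences in the levels of the 9 genes was not tested. In whole-seedling RNA, fewer cells of a type and less RNA per cell cannot be told apart.

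Some of the 9 genes overlap others in the annotation, and the strand setting of the counting is not given in the sources used here. In TAIR10.1, genes on the other strand cover 31.4% of the AFB3 transcript, 20.4% of AFB1, 5.73% of ARF7 and 0.636% of ARF5, so the levels of AFB3 and AFB1 in particular may include or lack reads of a neighbour. TIR1, AFB2, ARF6 and ARF8 have no such overlap, and ARF19 shares 0.139% with a gene on its own strand. No stretch of 50 bases of any of the 9 transcripts recurs elsewhere in the genome.

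The receptor transcripts shared their lowest level in pifq. TIR1, the founding auxin receptor, had 215 and 233 CPM in pifq;bzr1-1D, 170.26 and 166.99 CPM in pifq, 176 and 172 CPM in bzr1-1D, and 216 and 220 CPM in Col-0. Both single lines lay below all other libraries for this gene, and the combined line overlapped Col-0. AFB1, a receptor known for its part in rapid root responses, had 70.2 and 69.7 CPM in pifq;bzr1-1D, 48.0 and 45.6 CPM in pifq, 78.3 and 76.6 CPM in bzr1-1D, and 75.6 and 78.9 CPM in Col-0. Here pifq stood alone at the bottom, and bzr1-1D overlapped Col-0. AFB1 had the widest span among the 9 genes, its mean in bzr1-1D being 1.66 times that in pifq.

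AFB2 and AFB3, close relatives that act alongside TIR1, followed each other. AFB2 had 114 and 120 CPM in pifq;bzr1-1D, 97.04 and 98.24 CPM in pifq, 119 and 117 CPM in bzr1-1D, and 110 and 109 CPM in Col-0. AFB3 had 63.0 and 64.3 CPM in pifq;bzr1-1D, 49.7 and 53.1 CPM in pifq, 61.3 and 61.4 CPM in bzr1-1D, and 59.8 and 58.0 CPM in Col-0. In both genes the pifq libraries were the lowest, Col-0 came next, and the lines with bzr1-1D were at the top. Within a library all genes share its depth and scaling, so correlations between genes are a description only. Over the 8 libraries, AFB2 and AFB3 had a Pearson r of 0.951 on the log2 scale. AFB1 had 0.853 with AFB2 and 0.82 with AFB3, and TIR1 had 0.442 with AFB2.

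ARF6 and ARF8, the miR167 targets, act in hypocotyl growth and flower maturation. ARF6 had 69.3 and 77.7 CPM in pifq;bzr1-1D, 84.3 and 86.5 CPM in pifq, 95.4 and 94.3 CPM in bzr1-1D, and 112 and 108 CPM in Col-0. The genotypes formed a staircase without overlap, with the combined line lowest and the wild type highest. ARF8 had 31.0 and 31.2 CPM in pifq;bzr1-1D, 38.5 and 38.0 CPM in pifq, 42.9 and 43.2 CPM in bzr1-1D, and 39.1 and 37.6 CPM in Col-0. The combined line was again the lowest, but bzr1-1D was the highest and pifq overlapped Col-0.

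ARF7 drives phototropic bending of the hypocotyl and ARF5 (MONOPTEROS) patterns the embryo and the veins. ARF7 had 53.1 and 50.7 CPM in pifq;bzr1-1D, 47.1 and 46.9 CPM in pifq, 67.2 and 66.8 CPM in bzr1-1D, and 52.3 and 51.8 CPM in Col-0. ARF5 had 30.6 and 28.8 CPM in pifq;bzr1-1D, 31.8 and 30.3 CPM in pifq, 38.5 and 37.8 CPM in bzr1-1D, and 30.9 and 31.3 CPM in Col-0. Both genes were highest in bzr1-1D, apart from all other libraries. ARF19, the partner of ARF7 in lateral root formation, had 33.1 and 33.7 CPM in pifq;bzr1-1D, 24.9 and 29.8 CPM in pifq, 29.4 and 31.4 CPM in bzr1-1D, and 28.7 and 25.7 CPM in Col-0. Its combined line lay above all other libraries. Its libraries were the most uneven of the 9 genes, with a coefficient of variation of 12.6% in pifq.

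**Figure D1:**
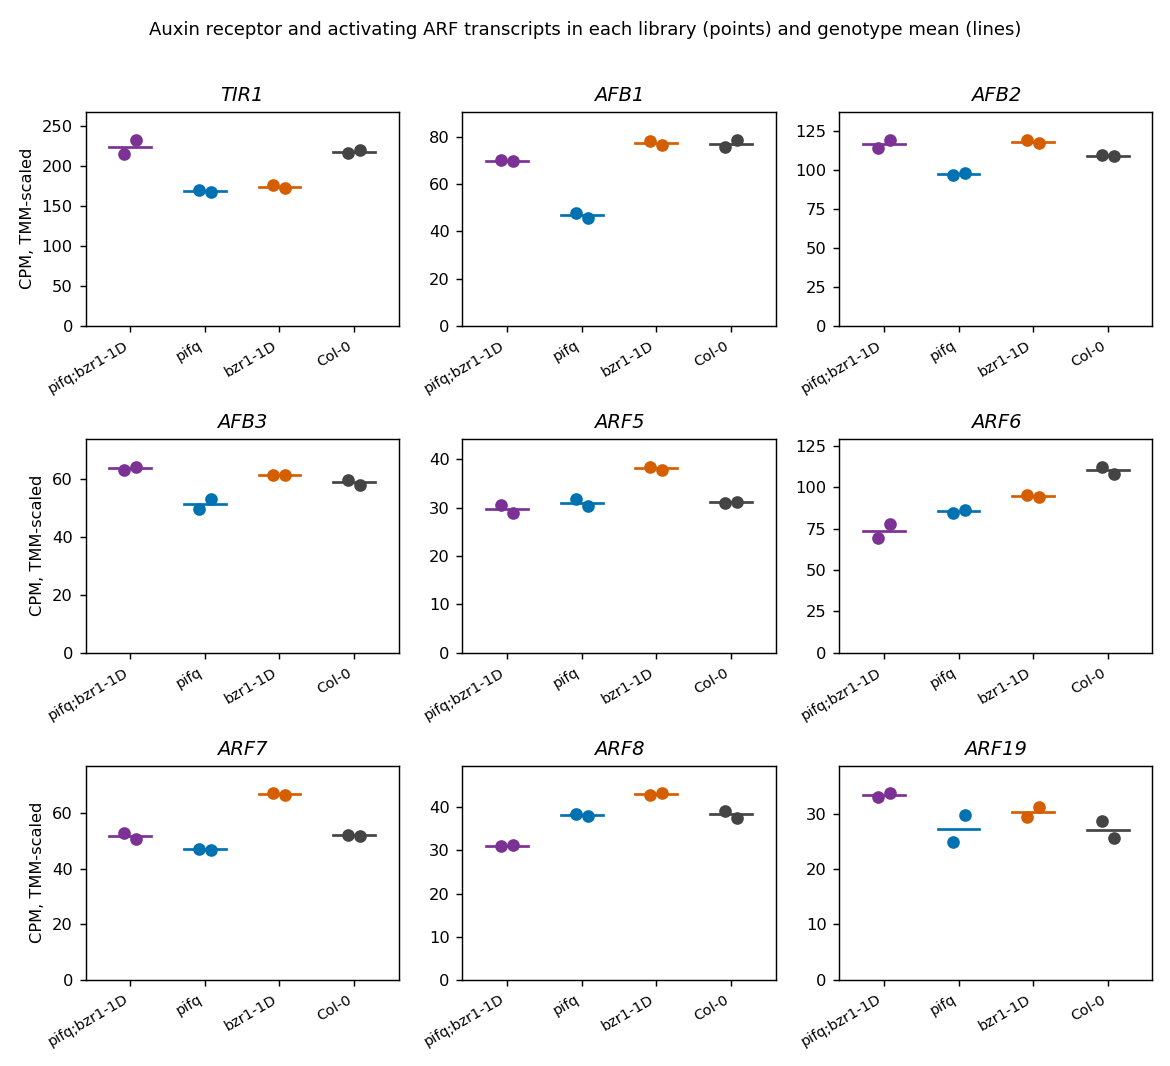
Levels of the 9 genes in TMM-scaled CPM (y axes, starting at 0) in each library (points), with a line at the mean of the 2 libraries of each genotype. All receptors have their lowest genotype mean in pifq, ARF6 and ARF8 have it in pifq;bzr1-1D, and ARF5, ARF7 and ARF8 have their highest in bzr1-1D.

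Loss of the PIFs asks what these factors do for the auxin machinery in the dark. Against Col-0, all 4 receptors fell in pifq, as did ARF6 and ARF7, and none of the 9 genes rose. AFB1 fell most, with a log2 fold change of −0.72 ± 0.05 (SE, n = 2 libraries per genotype, edgeR quasi-likelihood adjusted p = 1.42e-15), followed by TIR1 and ARF6, both at −0.37 ± 0.04. AFB3 (−0.20 ± 0.05), AFB2 (−0.16 ± 0.04) and ARF7 (−0.15 ± 0.05) fell less. ARF5, ARF8 and ARF19 were not called, with log2 fold changes of −0.00, −0.01 and −0.01, and the 95% interval of ARF19 ran from −0.15 to 0.13. The 6 genes called, all lower, compare with 62.5% of all genes tested called, 32% higher and 30.5% lower. Without Col-0 replicate 1 the edgeR adjusted p of ARF7 was 0.0505. The median log2 fold change was −0.16 over the 9 genes and 0.01 over all genes.

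With the PIFs present, the active BZR1 allele went with higher transcripts of most of these ARFs and lower TIR1. In bzr1-1D against Col-0, ARF7 (0.36 ± 0.04), ARF5 (0.30 ± 0.05) and ARF8 (0.16 ± 0.05) rose and ARF6 fell (−0.22 ± 0.04). TIR1 fell as well (−0.32 ± 0.04, edgeR adjusted p = 6.62e-09), while AFB2 rose by 0.12 ± 0.04 (edgeR adjusted p = 0.0104). AFB1 (0.01 ± 0.04), AFB3 (0.06 ± 0.05) and ARF19 (0.15 ± 0.07, edgeR adjusted p = 0.063) were not called. In total 6 of 9 were called, 4 higher and 2 lower, beside 56.8% of all genes tested, 30.8% higher and 26.1% lower. The call of AFB2 was lost under 5 of 16 alternatives, among them without bzr1-1D replicate 1, pifq replicate 1 or pifq replicate 2, and that of ARF8 was lost with DESeq2 (adjusted p = 0.129). ARF19 passed without Col-0 replicate 1 (0.24, edgeR adjusted p = 0.0251).

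Where the PIFs were missing, active BZR1 went with higher receptor transcripts. In pifq;bzr1-1D against pifq all 4 receptors rose, AFB1 by 0.58 ± 0.05, TIR1 by 0.41 ± 0.04, AFB3 by 0.31 ± 0.05 and AFB2 by 0.26 ± 0.04, with edgeR adjusted p from 2.26e-12 for AFB1 to 1.7e-06 for AFB3. The 4 receptor calls held under every alternative, here and in pifq against Col-0. The ARFs split, with ARF19 (0.29 ± 0.07) and ARF7 (0.15 ± 0.05) higher and ARF8 (−0.30 ± 0.06) and ARF6 (−0.23 ± 0.05) lower. ARF5 was not called (−0.05 ± 0.06). The 8 genes called, 6 higher and 2 lower, stand beside 55.9% of all genes tested called, 28.1% higher and 27.8% lower. Without pifq replicate 1, the lower of the uneven ARF19 libraries, ARF19 was at 0.14 (edgeR adjusted p = 0.156) and ARF7 at 0.12 (edgeR adjusted p = 0.102). ARF7 also lost its call without pifq replicate 2, without pifq;bzr1-1D replicate 1, with library totals as the only scaling and with DESeq2 (adjusted p = 0.111 to 0.316). That scaling moved the split over all genes to 4738 higher and 7143 lower, against 5958 higher and 5901 lower with TMM.

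**Figure D2:**
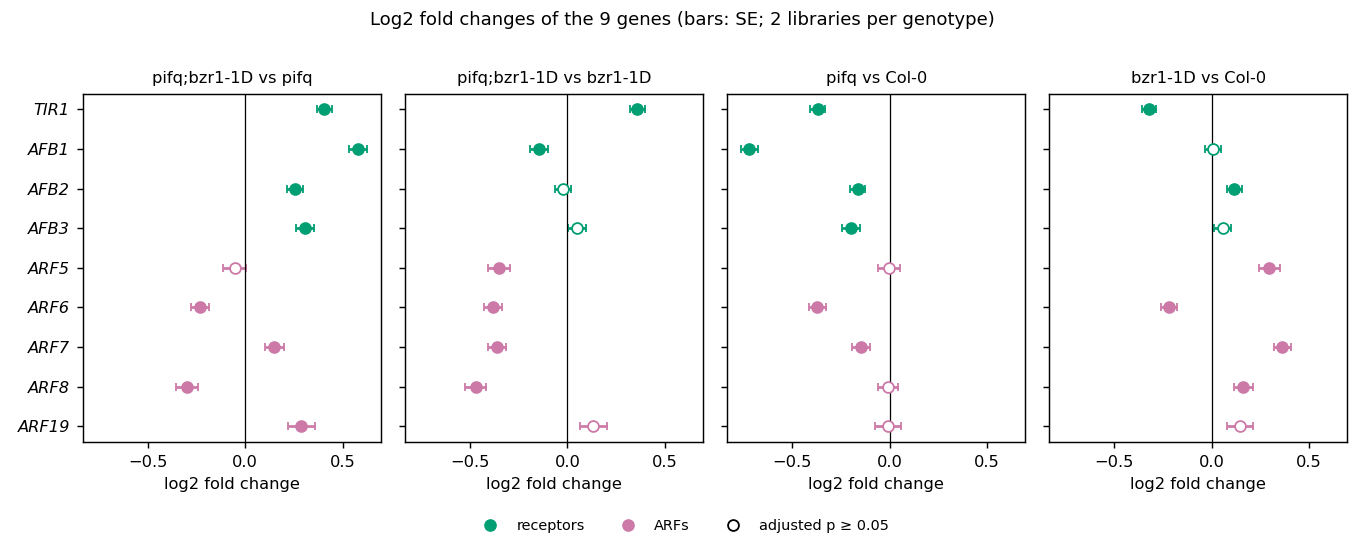
Log2 fold changes (x axes) of the 9 genes in 4 comparisons, with bars of 1 SE and filled symbols for an adjusted p under 0.05. All receptors are right of 0 in pifq;bzr1-1D against pifq and left of 0 in pifq against Col-0, and in pifq;bzr1-1D against bzr1-1D ARF5, ARF6, ARF7 and ARF8 lie between −0.47 and −0.35.

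The bzr1-1D effect itself was then compared without and with the PIFs by an interaction term, the log2 fold change of pifq;bzr1-1D against pifq minus that of bzr1-1D against Col-0. All 4 receptors had a positive difference and 3 ARFs a negative one. For TIR1 the effect was 0.41 without the PIFs and −0.32 with them, a difference of 0.73 ± 0.05 (edgeR adjusted p = 3.29e-13), which in size exceeded that of 78.3% of all genes tested. AFB1 differed by 0.57 ± 0.06, AFB3 by 0.25 ± 0.07 and AFB2 by 0.14 ± 0.06 (edgeR adjusted p = 0.0331). ARF8 had −0.30 without the PIFs and 0.16 with them, a difference of −0.46 ± 0.07 (edgeR adjusted p = 3.92e-06). ARF5 differed by −0.35 ± 0.08 and ARF7 by −0.21 ± 0.07, whereas ARF6 (−0.01 ± 0.06, 95% interval −0.14 to 0.12) and ARF19 (0.14 ± 0.10) were not called. These 7 calls, 4 higher and 3 lower, compare with 48.8% of all genes tested, 21.9% higher and 26.9% lower, and with a median of −0.06 over all genes. The call of AFB2 was lost under 7 of 15 alternatives, without pifq;bzr1-1D replicate 2, pifq replicate 1, pifq replicate 2, bzr1-1D replicate 2 or Col-0 replicate 1 among them (edgeR adjusted p = 0.0632 to 0.139), and that of ARF7 with DESeq2 (adjusted p = 0.085). Without pifq replicate 2, ARF19 was called at 0.27 (edgeR adjusted p = 0.0288).

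**Figure D3:**
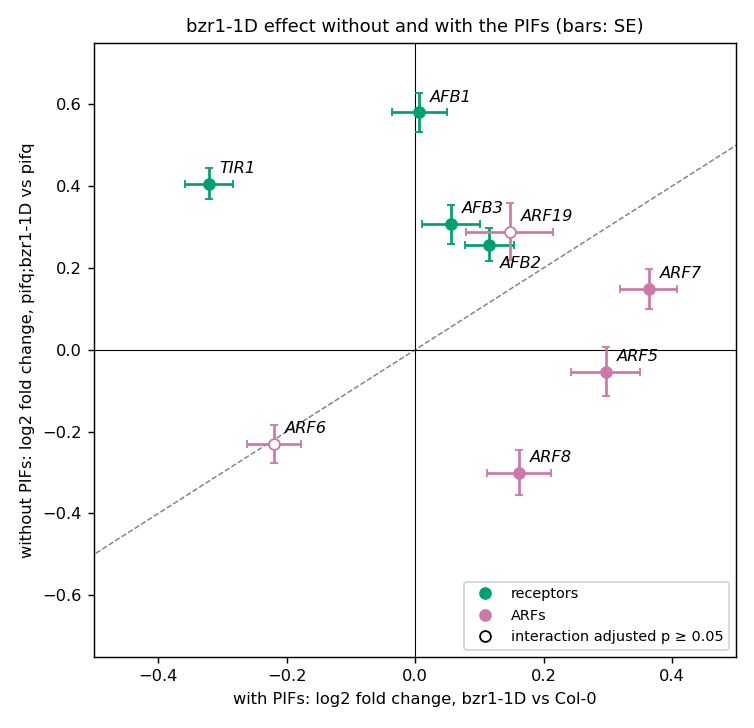
Effect of bzr1-1D on each gene without the PIFs (y axis, log2 fold change of pifq;bzr1-1D against pifq) and with them (x axis, bzr1-1D against Col-0), bars of 1 SE, dashed line of equal effects; open symbols have an interaction adjusted p of 0.05 or more. The receptors lie above the line and ARF5, ARF7 and ARF8 below it, with ARF6 on it.

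Loss of the PIFs was then examined in seedlings with active BZR1. In pifq;bzr1-1D against bzr1-1D, TIR1 rose by 0.36 ± 0.04 (edgeR adjusted p = 6.27e-10), the only one of the 9 genes called higher. ARF8 (−0.47 ± 0.05), ARF6 (−0.38 ± 0.05), ARF7 (−0.36 ± 0.05), ARF5 (−0.35 ± 0.06) and AFB1 (−0.15 ± 0.04) fell. AFB2 (−0.02 ± 0.04), AFB3 (0.05 ± 0.05) and ARF19 (0.13 ± 0.07) were not called. The 6 calls stand beside 65.4% of all genes tested, 33.8% higher and 31.6% lower. All 6 held under each of the 16 alternatives tried. With library totals as the only scaling, AFB2 was called lower (−0.14), AFB3 changed its sign (−0.06), and the split over all genes moved to 5514 higher and 8457 lower, against 7167 higher and 6706 lower with TMM.

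Set against the wild type, the combined line had lower ARF6 and ARF8 and higher ARF19 transcripts. In pifq;bzr1-1D against Col-0, ARF6 fell most (−0.60 ± 0.05, edgeR adjusted p = 2.28e-13), and ARF8 (−0.31 ± 0.05) and AFB1 (−0.14 ± 0.04) also fell. ARF19 rose by 0.28 ± 0.07 and AFB2 by 0.09 ± 0.04, the last at an edgeR adjusted p of 0.0455. TIR1 (0.04 ± 0.04, 95% interval −0.04 to 0.11), AFB3 (0.11 ± 0.05), ARF5 (−0.05 ± 0.06) and ARF7 (0.00 ± 0.05) were not called. The 5 calls, 2 higher and 3 lower, compare with 54.3% of all genes tested, 29.3% higher and 25% lower. AFB2 kept its call under 4 of 16 alternatives and lost it with any library of pifq;bzr1-1D, pifq or Col-0 left out. Leaving out Col-0 replicate 2 left 3 of the 9 genes called, AFB1 being lost as well (edgeR adjusted p = 0.0647). Library totals as the only scaling gave a median of −0.11 over all genes, against 0.03 with TMM. AFB2 (−0.05), AFB3 (−0.03), TIR1 (−0.10) and ARF7 (−0.14) then changed sign, of which ARF7 lay below that median. TIR1, ARF7 and ARF5 (−0.19) became called lower, and ARF19 (0.14) lost its call. The split over all genes was then 4169 higher and 8092 lower, against 6212 higher and 5303 lower with TMM. AFB3 passed with organelle-encoded genes left out (0.11, edgeR adjusted p = 0.0421).

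Ordered by mean level over the genotypes, several neighbours were not called apart. For TIR1, pifq;bzr1-1D and Col-0 formed an upper pair and bzr1-1D and pifq a lower pair, with no call within either pair (edgeR adjusted p = 0.426 and 0.258). With library totals as the only scaling, TIR1 was called higher in bzr1-1D than in pifq (0.09, edgeR adjusted p = 0.0461). For AFB1, bzr1-1D and Col-0 were not called apart (95% interval −0.08 to 0.09), the combined line was a step below and pifq lowest. AFB2 had bzr1-1D and pifq;bzr1-1D on top without a call between them, and for AFB3 the 3 genotypes other than pifq were not called apart from their neighbours. ARF5 and ARF7 were highest in bzr1-1D, and Col-0, pifq and pifq;bzr1-1D were not called apart for ARF5, nor Col-0 and pifq;bzr1-1D for ARF7. ARF8 had Col-0 and pifq as neighbours without a call in the middle of its order. ARF6 was the gene in which each step of the order passed, from Col-0 through bzr1-1D and pifq to pifq;bzr1-1D, although the step between bzr1-1D and pifq (0.15 ± 0.04) was lost without pifq replicate 1 (edgeR adjusted p = 0.101). The direct comparison of bzr1-1D with pifq, a pair added after the values were seen, had 8 of 9 genes higher and none lower, beside 74.1% of all genes tested called, 36.9% higher and 37.3% lower. AFB1 (0.73 ± 0.05) and ARF7 (0.51 ± 0.05) led it, and the call of ARF19 (0.15 ± 0.07) was lost under 6 alternatives, among them without pifq;bzr1-1D replicate 1, pifq;bzr1-1D replicate 2, pifq replicate 1 or bzr1-1D replicate 2. Without pifq replicate 2, ARF8 was lost too (edgeR adjusted p = 0.0672).

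Levels can be compared between genes only per length, here as CPM per kb of the longest transcript. On that scale TIR1 was the most abundant of the 9 in every genotype, with mean levels of 84.6 ± 4.73 in pifq;bzr1-1D, 63.7 ± 0.87 in pifq, 65.8 ± 1.09 in bzr1-1D and 82.3 ± 1.11 in Col-0 (SD, n = 2 each). AFB2 was next in each genotype, at 35.7 to 43.3. ARF19 was the least abundant of the 9 in each, at 6.28 to 7.72, with ARF5 just above it. ARF6 was the most abundant of the 5 ARFs in each genotype, from 18.1 in pifq;bzr1-1D to 27.1 in Col-0, and in Col-0 it exceeded AFB3 (26.4). Summed per library, the 4 receptors had 181 and 190 CPM per kb in pifq;bzr1-1D, 143 and 142 in pifq, 171 and 168 in bzr1-1D, and 181 and 183 in Col-0. The 5 ARFs summed to 54.0 and 55.3 in pifq;bzr1-1D, 57.0 and 58.1 in pifq, 68.4 and 68.4 in bzr1-1D, and 65.9 and 63.7 in Col-0. The receptor sum was thus lowest in pifq alone, and the ARF sum was lower in both lines without the PIFs than in both lines with them.

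Within each sum the make-up changed as well. TIR1 gave 45.5% ± 0.97 of the receptor level per length in pifq;bzr1-1D, 44.7% ± 0.55 in pifq, 38.8% ± 0.17 in bzr1-1D and 45.2% ± 0.29 in Col-0 (SD, n = 2 each). ARF6 gave 33.1% ± 2.15 of the ARF level in pifq;bzr1-1D, 36.5% ± 0.20 in pifq, 34.1% ± 0.27 in bzr1-1D and 41.9% ± 0.17 in Col-0. ARF7 gave 21.4% ± 1.04 in pifq;bzr1-1D, 18.5% ± 0.31 in pifq, 22.1% ± 0.09 in bzr1-1D and 18.1% ± 0.31 in Col-0. The bzr1-1D line was thus the one with the smallest TIR1 share, and the wild type the one with the largest ARF6 share.

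**Figure D4:**
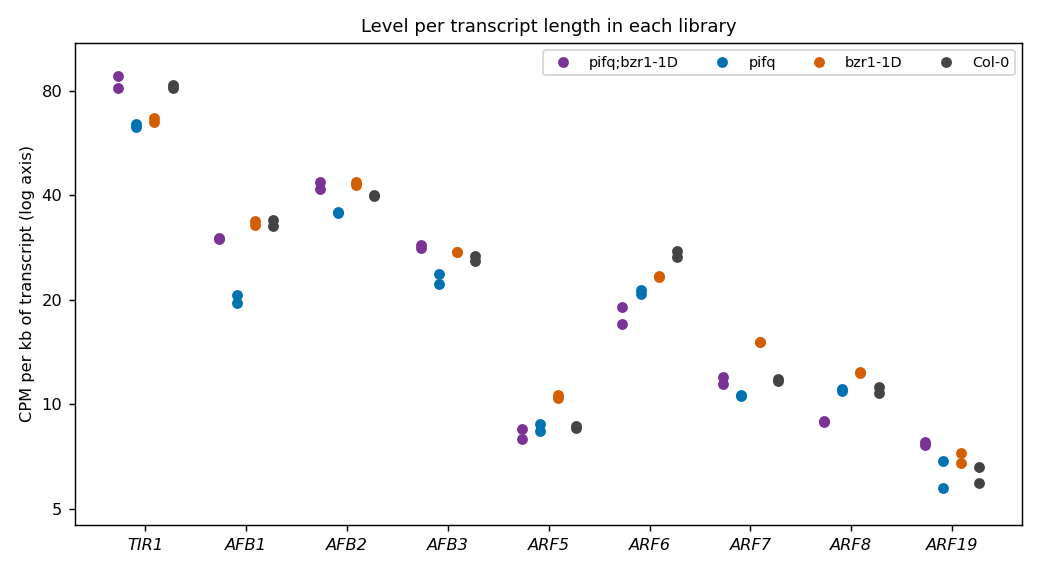
Level of each gene in CPM per kb of transcript (log axis) in each library, coloured by genotype. TIR1 is on top and ARF19 at the bottom in all genotypes, and the receptors AFB1 and AFB3 share their range with ARF6.

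Promoter letters were searched from 250 bases before to 50 bases after each annotated start, on both strands. The PIF-binding element CACATG was found in 3 of the 9 genes, AFB1, AFB2 and AFB3, against 12.9% of 27561 promoters. The G-box CACGTG was found in none (7.65% of promoters) and the brassinosteroid response element, CGTGTG or CGTGCG, in ARF5 (8.17%). The auxin response element TGTCTC was found in none (14.1%), and TGTCGG in ARF7 and ARF19 (5.12%), partner genes in auxin responses. The bases before the start are shown for AFB2 and AFB3, whose levels followed each other, with CACATG in capitals (TAIR10.1, chr3:9867402-9867651, plus strand, and chr1:4371299-4371548, minus strand).
AFB2: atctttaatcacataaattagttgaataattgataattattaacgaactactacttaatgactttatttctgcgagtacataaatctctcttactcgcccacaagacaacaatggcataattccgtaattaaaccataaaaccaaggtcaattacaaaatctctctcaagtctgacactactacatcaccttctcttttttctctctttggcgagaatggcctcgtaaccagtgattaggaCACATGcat
AFB3: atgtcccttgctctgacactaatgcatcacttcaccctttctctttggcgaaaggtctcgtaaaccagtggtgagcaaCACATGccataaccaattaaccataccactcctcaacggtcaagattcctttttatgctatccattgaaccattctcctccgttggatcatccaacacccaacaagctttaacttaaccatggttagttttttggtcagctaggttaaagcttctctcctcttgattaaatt
The element starts 9 bases before the start of AFB2, 172 before that of AFB3 and 4 before that of AFB1. Such matches describe the letters and are not shown to be bound.

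The precursor genes of miR167 moved in the lines without the PIFs. MIR167D had 14.2 and 12.6 CPM in pifq;bzr1-1D, 15.5 and 14.1 CPM in pifq, 9.77 and 10.4 CPM in bzr1-1D, and 9.23 and 8.93 CPM in Col-0. MIR167A had 3.13 and 2.55 CPM in pifq;bzr1-1D, 2.22 and 2.45 CPM in pifq, 1.145 and 1.129 CPM in bzr1-1D, and 1.37 and 1.69 CPM in Col-0. All 3 precursors tested (MIR167A, MIR167B and MIR167D) rose in pifq against Col-0, where 32% of all genes tested rose. MIR167D rose by 0.70 ± 0.09 (edgeR adjusted p = 2.35e-08), and MIR167B was low, averaging 0.96 CPM in pifq and 0.32 CPM in Col-0. None of the 3 was called in bzr1-1D against Col-0 or in pifq;bzr1-1D against pifq. In these comparisons 56.8% and 55.9% of all genes tested were called. In pifq against Col-0 the call of MIR167A was lost without pifq replicate 2 or Col-0 replicate 1 (edgeR adjusted p = 0.0633 and 0.152) and with DESeq2 (adjusted p = 0.14), and that of MIR167B without Col-0 replicate 1 (edgeR adjusted p = 0.0664), while MIR167D kept its call. In pifq;bzr1-1D against Col-0 all 3 precursors rose, MIR167B not without Col-0 replicate 1 (edgeR adjusted p = 0.133), and ARF6 and ARF8 fell. Of all genes tested, 29.3% were called higher in pifq;bzr1-1D against Col-0. In pifq against Col-0, where the precursors also rose, ARF6 fell and ARF8 was not called (−0.01 ± 0.05). In bzr1-1D against Col-0, where no precursor was called, ARF6 fell too and ARF8 rose. Nor was a precursor called in pifq;bzr1-1D against pifq, where ARF6 (−0.23) and ARF8 (−0.30) fell. In pifq;bzr1-1D against bzr1-1D, MIR167A (1.35) and MIR167D (0.43) rose, MIR167B was not called, and ARF6 and ARF8 fell. There 33.8% of all genes tested rose. In bzr1-1D against pifq, all 3 precursors were called lower (MIR167B not with DESeq2), and ARF6 and ARF8 higher. There 37.3% of all genes tested were lower. MIR393A and MIR393B had at most 2 counts in any library, where 3 counts are 0.0836 to 0.196 CPM, so the miR393 precursors were not detectable at this depth. The part of the precursors in the ARF6 and ARF8 levels was not tested.

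The other receptors of the family, AFB4 and AFB5, were not called lower in pifq, and whether they differed from the other receptors was not tested. AFB4 had 15.7 and 17.1 CPM in pifq;bzr1-1D, 15.5 and 15.5 CPM in pifq, 15.4 and 17.1 CPM in bzr1-1D, and 14.4 and 13.7 CPM in Col-0. Neither was called in pifq against Col-0 or in the interaction, with AFB5 at −0.03 ± 0.04 and 0.04 ± 0.06. AFB4 rose in bzr1-1D against Col-0 (0.20 ± 0.08, edgeR adjusted p = 0.0292), a call lost with all but bzr1-1D replicate 1 left out in turn (edgeR adjusted p up to 0.28). Among the SCF subunits and the NEDD8 enzymes that activate the SCF, 5 of 9 genes fell in pifq against Col-0 and none rose, where 30.5% of all genes tested fell and 32% rose. RCE1, a NEDD8-conjugating enzyme, fell most (−0.53 ± 0.04), with ASK1, the Skp1 adaptor of the F-box receptors, at −0.40 ± 0.04 and CUL1, the cullin scaffold, at −0.21 ± 0.03. In pifq;bzr1-1D against pifq, 5 of these 9 rose and none fell (28.1% and 27.8% of all genes tested), with ECR1, a subunit of the NEDD8-activating enzyme, at 0.64 ± 0.04 and ASK2 at 0.39 ± 0.05. In bzr1-1D against Col-0, 5 of the 9 fell and none rose (26.1% and 30.8% of all genes tested), with CUL1 at −0.17 ± 0.03, ECR1 at −0.20 ± 0.04 and ASK1 at −0.10 ± 0.04. ASK1 lost that call without bzr1-1D replicate 2 (edgeR adjusted p = 0.23) or Col-0 replicate 2 (edgeR adjusted p = 0.178), and RCE1 lost its rise in pifq;bzr1-1D against pifq without pifq;bzr1-1D replicate 1 (edgeR adjusted p = 0.0565). Of the 9, 5 were called higher in the interaction and none lower, beside 21.9% and 26.9% of all genes tested. ECR1 led them (0.84 ± 0.06, edgeR adjusted p = 5.09e-13), and the median interaction was 0.17 over the 9 genes, −0.06 over all genes tested and 0.41 over the 4 receptors TIR1 to AFB3.

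The other ARFs, most of them known as repressors, took both directions. Of 10 tested, 3 rose and 4 fell in pifq against Col-0, shares near the 32% and 30.5% of all genes tested. ARF11 had 36.2 and 36.5 CPM in pifq;bzr1-1D, 30.3 and 29.8 CPM in pifq, 17.9 and 18.7 CPM in bzr1-1D, and 12.7 and 11.7 CPM in Col-0. ARF11 was thus highest where ARF6 was lowest, and rose by 1.29 ± 0.07 in pifq and by 0.57 ± 0.07 in bzr1-1D against Col-0. ARF18 fell in pifq against Col-0 (−0.58 ± 0.06) and rose by 0.25 ± 0.06 in bzr1-1D. ARF2, a growth repressor with 308 to 387 CPM across the libraries, fell in pifq (−0.26 ± 0.03). In the interaction 1 of the 10 was called higher, ARF1 (0.46 ± 0.06), and 1 lower, ARF11 (−0.30 ± 0.09), where 21.9% of all genes tested were called higher and 26.9% lower. DESeq2 did not call ARF11 (adjusted p = 0.105).

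The TOPLESS corepressors also moved both ways. TPR3 had 13.8 and 15.0 CPM in pifq;bzr1-1D, 21.6 and 20.9 CPM in pifq, 19.6 and 20.6 CPM in bzr1-1D, and 14.7 and 13.2 CPM in Col-0, so it was higher in both single lines than in the combined line and Col-0. TPL, the founding member, fell in bzr1-1D (−0.51 ± 0.04) and in pifq (−0.12 ± 0.03) against Col-0. The interaction was 0.59 ± 0.05 for TPL and −1.09 ± 0.11 for TPR3. Of the 5 corepressors, 2 were called higher and 2 lower in the interaction, beside 21.9% and 26.9% of all genes tested.

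Early auxin response genes spread over a wider range of fold changes than the receptors and ARFs. Some of them were near the floor of 3 counts outside bzr1-1D, so their fold changes are less certain. LBD29 averaged 0.10 CPM in pifq;bzr1-1D, 0.24 CPM in pifq, 3.29 CPM in bzr1-1D and 0.21 CPM in Col-0. Of 13 tested out of 14 listed, 8 fell and 1 rose in pifq against Col-0 (30.5% and 32% of all genes tested). In bzr1-1D against Col-0, 7 rose and 4 fell (30.8% and 26.1%), and in pifq;bzr1-1D against pifq 5 rose and 3 fell (28.1% and 27.8%). GH3.5, an auxin-conjugating enzyme, had 69.5 and 75.8 CPM in pifq;bzr1-1D, 79.1 and 75.8 CPM in pifq, 229 and 214 CPM in bzr1-1D, and 217 and 220 CPM in Col-0. It was thus low in both lines without the PIFs. IAA19, an Aux/IAA repressor of ARF7, had 1.76 and 0.915 CPM in pifq;bzr1-1D, 1.28 and 1.10 CPM in pifq, 33.9 and 35.8 CPM in bzr1-1D, and 5.71 and 5.07 CPM in Col-0. The interaction was −2.39 ± 0.30 for IAA19 and 1.45 ± 0.13 for IAA1. Of the 13 genes, 3 were called higher and 4 lower in the interaction, beside 21.9% and 26.9% of all genes tested. The median interaction over the 13 genes was −0.12. These lists were chosen with results of these libraries known, so their counts are descriptions.

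**Figure D5:**
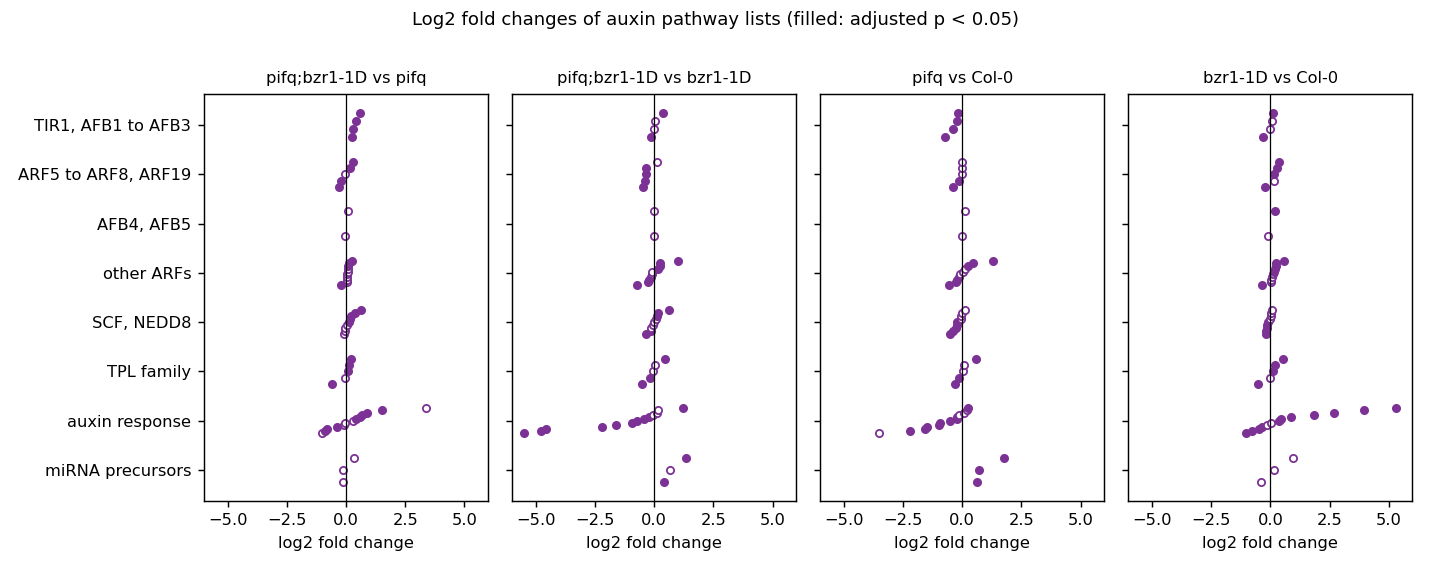
Log2 fold changes (x axes) of the genes of each auxin list in 4 comparisons, 1 point per gene, filled where the adjusted p was under 0.05. The 9 receptor and ARF genes lie within −0.72 to 0.58, while the early response genes spread over several log2 units.

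Genes with the most similar profile were sought among the 12100 genes averaging at least 10 CPM. The measure was Pearson r of log2(CPM + 1) over the 8 libraries, which form 4 genotypes. Within a library all genes share its depth. TIR1 was most like XK-2, a xylulose kinase gene (r = 0.992), and ATAN11 (LWD1, a clock regulator, r = 0.989). AFB1 was most like BPM1 (0.996) and GLTP2 (0.995), AFB2 like AT2G20410 (0.992) and the ethylene signalling gene EIL1 (0.991), and AFB3 like STY17 (0.987) and VPS15 (0.984). Among the ARFs, ARF8 was most like the arabinogalactan protein gene FLA7 (0.997) and the gibberellin synthesis gene GA3OX1 (0.992), and ARF6 like G6PD2 (0.99) and AT1G07750 (0.984). ARF5 was most like AT4G32140 (0.993) and SCPL49 (0.99), ARF7 like AT3G56050 (0.996) and AT1G68820 (0.996), and ARF19 like JMJ18 (0.953) and ZML1 (0.95). GA3OX1 averaged 11.03 CPM in pifq;bzr1-1D, 27.7 CPM in pifq, 58.4 CPM in bzr1-1D and 30.03 CPM in Col-0, and was thus lowest in the combined line and highest in bzr1-1D, as ARF8 was. The profile of ARF7 was common, with 578 genes above an r of 0.95, and that of ARF19 was rare, with 2.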

How the data were processed

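RNA-seq was analysed from 8 libraries of 4 genotypes, grouped by their titles. Each library's deposited file holds raw read counts by gene code. TopHat, HTSeq and the build TAIR9 are named per the submitters' processing notes. Software versions, the strand option and the treatment of multiply mapped reads were not given in the sources used here. Reads that the authors' counting gave to no gene (2.68% to 4.27%) or called ambiguous (1.95% to 2.08%) were left out of library sizes. Of the 33518 gene codes, 32709 were found in the TAIR10.1 annotation and 809 were not.

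CPM values are TMM-scaled (factors 0.942 to 1.04), and 95% intervals and SE of log2 fold changes come from the fit, the SE as the absolute value over the square root of F. After filterByExpr, edgeR 4.0.16 (R 4.3.3, limma 3.58.1) ran the quasi-likelihood F test on all 8 libraries together, 1 coefficient for each genotype, which leaves 4 residual degrees of freedom. P-values were adjusted by Benjamini-Hochberg over 21221 genes, with calls at an adjusted p under 0.05. The 7 contrasts include bzr1-1D against pifq, which was added after the data were seen. Pairs that share a genotype share its libraries. The code was tested on simulated data with known changes. Floors of 3 counts cover counting error only, and intervals rest on the spread between 2 libraries per genotype. The edgeR fit moderates each gene's spread with that of the other genes tested. Intervals and edgeR p-values thus use more than the 4 residual degrees of freedom.

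The 9 genes and all lists were chosen with earlier results of these data known. Named genes were the 9 in every contrast, up to 3 per list and contrast by smallest p, the 2 most similar profiles per gene and the mutated genes. Other genes beside these are named only as members of a marker list. Alternatives were RLE size factors, library totals only, other count filters, DESeq2 1.42.0, only the genotypes compared, organelle genes left out, a replicate block, each library left out in turn, and coding length for levels.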

Additional observations from a re-analysis of the deposited data

Results flagged for a closer look

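The effect of bzr1-1D differed without and with the PIFs in 7 of the 9 genes, by edgeR's test of the interaction itself over 21221 genes, of which 48.8% were called. The difference, as a log2 value without the PIFs minus with them, was 0.73 for TIR1, 0.57 for AFB1, 0.25 for AFB3 and 0.14 for AFB2. It was −0.46 for ARF8, −0.35 for ARF5 and −0.21 for ARF7. TIR1 and ARF8 were called in opposite directions in pifq;bzr1-1D against pifq and in bzr1-1D against Col-0.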

How the results depend on the processing

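Of 46 calls of the 9 genes, 33 held under every alternative and 13 were lost or reversed under 1 or more of 16, the weakest being AFB2 in pifq;bzr1-1D against Col-0. The number of the 9 genes called there was 3 to 5 with 1 library left out, lowest without Col-0 replicate 2, where AFB1 and AFB2 were lost. With a replicate block, the 9 genes gave 8, 6, 5, 6, 6, 8 and 7 calls in pifq;bzr1-1D against pifq, bzr1-1D and Col-0, pifq against Col-0, bzr1-1D against Col-0, bzr1-1D against pifq and the interaction, as without it. Same-numbered libraries did not deviate together over the genes tested (correlations −0.02 to 0.03). This does not show whether they were grown or handled together, which the labels do not say. Sign changes touched values that were not called, except AFB2 in pifq;bzr1-1D against Col-0, called at 0.09 and reversed with library totals, under which TIR1 and ARF7 were called lower there. ARF7 in pifq;bzr1-1D against Col-0 had −0.0310 with RLE factors, −0.14 with library totals, −0.0046 without a filter, −0.0297 with 1 CPM in 2 libraries, −0.033 with DESeq2, −0.00016 with the replicate block, −0.029 with the 2 genotypes alone, and −0.064 to 0.0081 with 1 library left out. AFB1 in bzr1-1D against Col-0 had −0.0086 with RLE factors, −0.018 with library totals, −0.019 with 1 CPM in 2 libraries, −0.011 with DESeq2, −0.0203 with the 2 genotypes alone, and −0.029 to 0.032 with 1 library left out. With library totals, pifq;bzr1-1D against Col-0 gave −0.10 for TIR1, −0.045 for AFB2 and −0.031 for AFB3, and against bzr1-1D −0.062 for AFB3. ARF5 in pifq against Col-0 had 0.0019 with the replicate block and 0.0032 without organelle genes, and the interaction of ARF6 had 0.0014 with DESeq2. With 1 library left out, the ranges were −0.047 to 0.073 for TIR1 in pifq;bzr1-1D against Col-0, −0.055 to 0.019 for AFB2 in pifq;bzr1-1D against bzr1-1D, −0.083 to 0.087 for the ARF6 interaction, and, in pifq against Col-0, −0.039 to 0.034 for ARF5, −0.033 to 0.026 for ARF8 and −0.14 to 0.12 for ARF19. The cause of these changes was not tested. Coding length changed the rank of 2 genes in pifq and of 2 in Col-0. In a fit without 1 library, the lone library is assumed to vary like those of the other genotypes, and 2 libraries per genotype limit what small differences can show.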
